A study of Homo sapiens with 4 samples.

Results

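Aminoacyl-tRNA synthetases are the enzymes that join each amino acid to its transfer RNA before translation. The genes described were 35 synthetase genes, 19 named as cytosolic and 16 named as mitochondrial by a symbol ending in ARS2, and each was found on the array through the gene named for its probes, older symbols included. Probes were found for 34 of them, 19 cytosolic and 15 mitochondrial, among 18665 genes on the array. No probe was named for YARS2. The 34 genes had 41 of the 48803 probes, and every gene was detected on all 4 arrays by the probe it was read from. The products of GARS1 and KARS1 serve both the cytosol and the mitochondrion, and both genes were kept with the cytosolic set.

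The samples were 4 cultures of human colon adenocarcinoma cells on Illumina bead arrays, 1 array per culture. LvM3b, a line that published work describes as selected for its growth in liver, was used as a control culture, as a culture over-expressing miR-483 (the series title gives miR-483-5p), and as a culture over-expressing miR-551a. A culture labelled Ls-Parental, whose cell line entry nonetheless reads LvM3b, was the last. All were grown in DMEM with serum and glutamine, and the means of over-expression was not stated in the labels. No treatment, age or time was given for any of them, and the mature microRNAs were not measured on these arrays.

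Cells with too little of an amino acid accumulate uncharged transfer RNA, which activates the kinase GCN2 and raises the translation of the transcription factor ATF4. ATF4 then raises transcription of amino acid transporters, of enzymes that make amino acids, and of many cytosolic synthetases, through a short element bound by ATF4 with C/EBP proteins. Mitochondrial synthetases are encoded in the nucleus by separate genes and charge the transfer RNAs of the mitochondrial genome.

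Between 13861 and 14628 probes were detected per array, and the lowest detected log2 level lay between 6.13 and 6.38. Synthetase levels on the log2 scale ran from 6.82 (WARS2, miR-551a array) to 14.97 (FARSB, Ls-Parental array), above those limits. Of 9 intestinal epithelial markers, 8 were detected on all 4 arrays and KRT20 only on Ls-Parental. None of the 3 fibroblast and 3 hepatocyte markers was detected on any array, and of 5 white blood cell and endothelial markers 1, PECAM1, was detected on 1 array, that of miR-483. With 1 array per group no test was possible and no p-value was computed, and the number of arrays limits the precision. Only error between probes could be judged, from genes read by a second probe. Over 2141 such genes the log2 differences of miR-483 over control from the paired probes lay a median of 0.17 apart. At the 90th percentile they lay 0.45 apart (0.17 and 0.46 over 2128 genes for miR-551a). Both probes were read on the same arrays, so this gap holds no variation between cultures or RNA preparations, which could not be measured. In these RNA extracts, fewer cells making a transcript and less of it per cell cannot be told apart.

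A difference was counted where it reached 0.32 on the log2 scale, which is 25% higher or 20% lower. Promoters of the 4 synthetase genes that were lower by that much in both microRNA cultures are shown. They were chosen because each gene has a listed promoter with a match to the ATF4 element. The sequences are RefSeq promoters (GRCh38.p14), from 100 bases before to 50 bases after a listed start, read along the gene. Capitals mark the 8-base match to TGATGNAA, which reads TTNCATCA on the other strand. The genes are CARS1 (chr11:3057374-3057523, minus strand), MARS1 (chr12:57487968-57488117, plus strand), GARS1 (chr7:30594778-30594927, plus strand) and NARS1 (chr18:57621787-57621936, minus strand).
CARS1: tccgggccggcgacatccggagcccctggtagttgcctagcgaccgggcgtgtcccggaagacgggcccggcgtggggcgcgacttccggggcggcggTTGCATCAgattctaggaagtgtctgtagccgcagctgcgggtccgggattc
MARS1: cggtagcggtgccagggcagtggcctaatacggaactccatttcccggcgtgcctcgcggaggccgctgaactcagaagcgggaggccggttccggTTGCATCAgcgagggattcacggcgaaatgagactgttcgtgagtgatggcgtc
GARS1: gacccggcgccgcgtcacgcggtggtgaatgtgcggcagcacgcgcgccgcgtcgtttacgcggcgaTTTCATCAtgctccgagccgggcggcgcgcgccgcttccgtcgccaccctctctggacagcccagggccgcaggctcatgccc
NARS1: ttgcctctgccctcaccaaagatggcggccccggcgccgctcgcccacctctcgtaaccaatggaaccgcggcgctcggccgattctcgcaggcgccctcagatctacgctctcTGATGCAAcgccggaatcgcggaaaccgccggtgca

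Counted from the first transcribed base as 0, the match began at -2 in CARS1, -4 in MARS1, -33 in GARS1 and 14 in NARS1, where it lies in the opposite orientation. Among the other measured members, matches stood in TARS1 (chr5:33440959-33440982, plus strand), IARS1 (chr9:92293695-92293718, minus strand) and AARS1 (chr16:70289678-70289701, minus strand). They are shown with 8 bases on either side so that the element can be compared between genes.
TARS1: cctttcgaTTGCATCAgctggtcc
IARS1: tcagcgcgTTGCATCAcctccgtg
AARS1: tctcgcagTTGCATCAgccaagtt

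Promoters of 300 bases, 250 before to 50 after the start, were listed for 30 of the 35 synthetase genes. Both strands were searched, and 7 of 16 cytosolic genes and 1 of 14 mitochondrial genes (YARS2) held a match, against 4.46% of all 27305 genes with a listed promoter (3.62% of 35116 windows). CARS1, GARS1 and TARS1 had 2 listed windows each, and only the window shown above held the match. A match is a description of the letters, not a measured binding site.

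Cysteinyl-tRNA synthetase and methionyl-tRNA synthetase were the cytosolic enzymes whose messenger RNA was furthest below the control with each microRNA. CARS1 had a log2 level of 9.32 on the control array, 8.43 and 8.51 with the microRNAs (miR-483, then miR-551a), and 9.69 in Ls-Parental. It was thus 1.86-fold lower with miR-483 (log2 difference -0.90) and 1.75-fold lower with miR-551a (-0.81). MARS1 stood at 10.25, 9.59, 9.58 and 10.82 in the same order, 1.58-fold and 1.59-fold lower (-0.66 and -0.67). Both genes were lowest on the microRNA arrays and highest in Ls-Parental. All 4 of these differences were larger than the 90th percentile of the gap between paired probes, which leaves out variation between cultures.

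GARS1 (glycyl) and NARS1 (asparaginyl) had smaller differences in the same direction. GARS1 stood at 13.22 on the control array, 12.86 and 12.70 on those of miR-483 and miR-551a, and 13.62 in Ls-Parental, 1.29-fold and 1.43-fold lower than the control. NARS1 stood at 14, 13.64, 13.53 and 14.23, 1.28-fold and 1.38-fold lower. The differences of GARS1 were -0.37 and -0.52, those of NARS1 -0.35 and -0.47, so those with miR-483 lay within the 90th percentile of the probe gap.

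EPRS1, a single protein that charges glutamyl and prolyl transfer RNA, and YARS1, the tyrosyl enzyme, lay close to that size. EPRS1 had levels of 13.34 (control), 13.04 (miR-483), 12.97 (miR-551a) and 13.38 (Ls-Parental), with differences of -0.30 and -0.37. YARS1 had levels of 12.57, 12.26, 12.23 and 12.99, with differences of -0.31 and -0.35. TARS1, the threonyl enzyme, stood at 12.92, 12.68, 12.64 and 13.30, with differences of -0.25 and -0.28. In each of these 3 genes both microRNA arrays lay below the control, and the control below Ls-Parental.

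The phenylalanyl enzyme is built of 2 kinds of subunit, and its genes lay on the other side. FARSA, the alpha subunit, had levels of 8.02 on the control array, 8.39 and 8.41 with the microRNAs (miR-483, then miR-551a), and 7.79 in Ls-Parental, 1.29-fold and 1.31-fold higher than the control. FARSB, the beta subunit, was also above the control with both, by 0.20 and 0.17. The differences of FARSA were 0.37 and 0.39, where that percentile was 0.45 with miR-483 and 0.46 with miR-551a. Both microRNA arrays were the highest for FARSA, whereas FARSB was highest in Ls-Parental (14.97).

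Counted over the cytosolic genes, 4 of 19 (CARS1, MARS1, GARS1 and NARS1) lay 0.32 or more below the control in the miR-483 culture, where 7.37% of the 9673 genes detected on either array were so. FARSA alone lay as far above it, a count near the 7.2% of all genes. With miR-551a 6 of 19 were lower, the same 4 with EPRS1 and YARS1, against 8.82% of 9619 genes. FARSA alone was again higher, a count near the 9.13% of all genes. The medians were -0.12 and -0.23, where all genes had 0.01 and 0.01. The 12 cytosolic genes outside these 7 differed by -0.25 to 0.20 with miR-483 and by -0.28 to 0.21 with miR-551a. Among them VARS1 (0.01 and 0.04), QARS1 (0.05 and 0.04) and KARS1 (-0.04 and 0.03), the valyl, glutaminyl and lysyl enzymes, lay close to the control in both. Both comparisons share the control array, so its own error enters both, and their likeness is no sign of repeatability. Without background correction, or with the authors' scaling, FARSA did not reach 0.32 in either comparison.

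**Figure D1:**
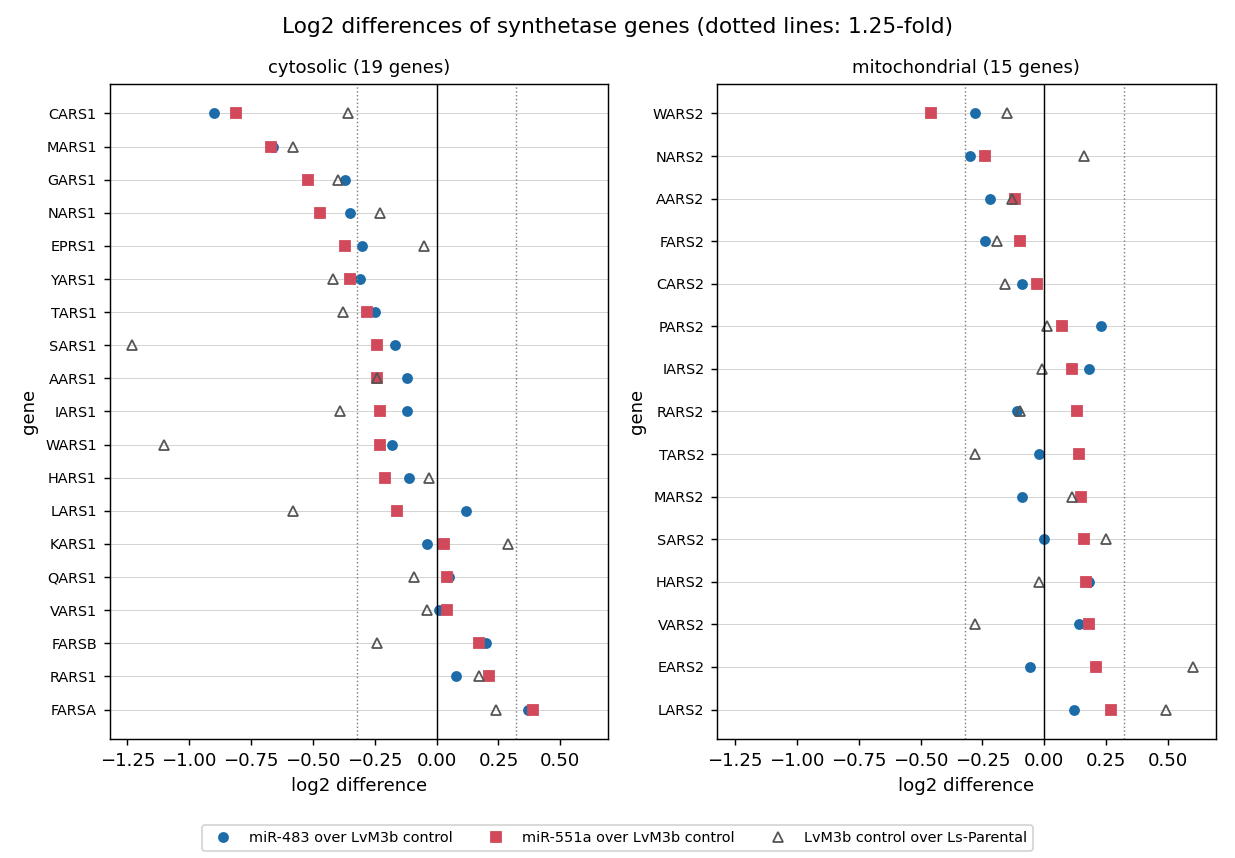
Log2 differences (horizontal axis) for 19 cytosolic and 15 mitochondrial synthetase genes, 1 row per gene, with circles for miR-483 over control, squares for miR-551a over control and open triangles for LvM3b control over Ls-Parental; dotted lines mark 0.32 either way, and each point is a difference of 2 single arrays. CARS1 and MARS1 lie furthest left of the cytosolic genes for both microRNAs, SARS1 (-1.23) and WARS1 (-1.10) for the control over Ls-Parental, and the mitochondrial genes stay between -0.46 and 0.60.

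The cytosolic enzymes known from published work as ATF4 targets were separated from the others. This list of 13 was chosen with earlier results of these data known. With miR-483, 4 of the 13 were lower by 0.32 or more (7.37% of all genes) and 0 higher, with a median of -0.25 and a range from -0.90 (CARS1) to 0.12 (LARS1, the leucyl enzyme). With miR-551a, 6 of 13 were lower (8.82% of all genes) and 0 higher, with a median of -0.28 and a range from -0.81 to 0.04 (VARS1). The other 6 cytosolic genes, FARSA, FARSB, HARS1, KARS1, QARS1 and RARS1, had medians of 0.07 and 0.11, and 0 of 6 were that much lower, a count that these shares of all genes would also give. HARS1, the histidyl enzyme, differed by -0.11 and -0.21, and RARS1, the arginyl enzyme, by 0.08 and 0.21.

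The cytosolic genes with a listed promoter were also divided by the promoter match, a motif chosen with earlier results known. All genes with a match are on the list of known ATF4 targets. Those without one are the other 6 cytosolic genes with EPRS1, SARS1 and WARS1. Both divisions thus sort largely the same genes and values, and the second is no separate evidence. The 7 genes with a match (AARS1, CARS1, GARS1, IARS1, MARS1, NARS1 and TARS1) were all below the control (48.4% of all genes were with miR-483 and 48.8% with miR-551a), with a median of -0.35 with miR-483 (range -0.90 to -0.12) and -0.47 with miR-551a (range -0.81 to -0.23). The 9 genes whose listed promoter held no match had medians of -0.04 and 0.03. In them 5 and 4 genes lay below the control, EPRS1 furthest (-0.30 and -0.37). In the LvM3b control over Ls-Parental the 7 genes with a match ran from -0.58 to -0.23, but the 9 without one held SARS1 (-1.23) and WARS1 (-1.10), further from 0 than any gene with a match. Their median was -0.05, and 6 of the 9 lay below 0 (51.8% of all genes). No match says only that these letters are not in the window searched.

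**Figure D2:**
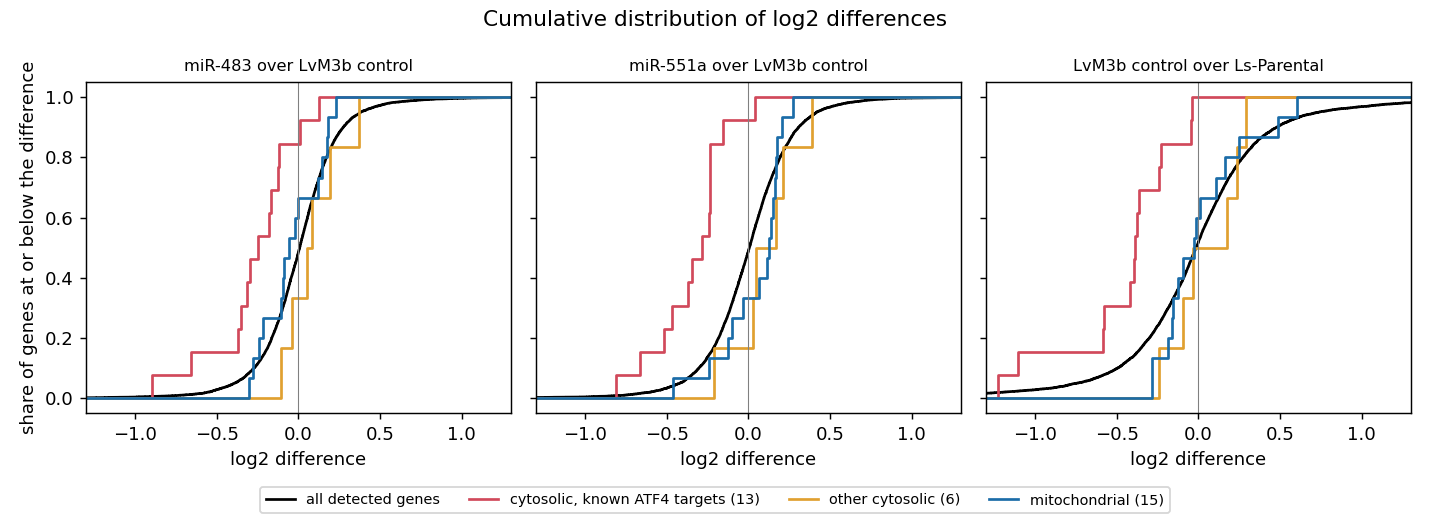
Share of genes (vertical axis) at or below each log2 difference (horizontal axis), in 3 comparisons, for all detected genes, 13 cytosolic synthetases known as ATF4 targets, 6 other cytosolic synthetases and 15 mitochondrial synthetases; the tails of all genes run past the axis. The curve of the known ATF4 targets lies left of all genes in each panel, with medians of -0.25, -0.28 and -0.39, while the other cytosolic genes have medians of 0.07, 0.11 and 0.07.

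Several cytosolic synthetases sit with scaffold proteins in the multisynthetase complex. Of its 7 enzymes among the members, MARS1 was lower by 0.32 or more in the miR-483 culture (7.37% of all genes were). In the miR-551a culture MARS1 and EPRS1 were (8.82% of all genes). The medians were -0.04 and -0.16. RARS1, QARS1 and KARS1, which share the complex, lay between -0.04 and 0.21 in both. AIMP1, the only 1 of 3 scaffold genes with a probe, differed by 0.10 and -0.06.

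Few mitochondrial synthetases differed from the control by 0.32 or more, and their counts lay near the share of all genes. With miR-483, 0 of 15 reached it in either direction (7.37% of all genes were lower and 7.2% higher), the range was -0.30 (NARS2, the asparaginyl enzyme) to 0.23 (PARS2, the prolyl enzyme), and the median was -0.06. With miR-551a, WARS2, the tryptophanyl enzyme of mitochondria, was past it on the lower side and 0 on the higher (8.82% and 9.13% of all genes), and the median was 0.13. WARS2 was near the detection limit, with levels of 7.28 (control), 7.0 (miR-483), 6.82 (miR-551a) and 7.43 (Ls-Parental), 1.38-fold lower with miR-551a (-0.46) but only -0.28 without background correction. The cytosolic median minus the mitochondrial one was -0.36 with miR-551a and -0.07 with miR-483, a description with no test.

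Enzyme pairs for the same amino acid differed in places. The cytosolic CARS1, MARS1 and TARS1 lay below the control with both microRNAs, whereas their mitochondrial counterparts CARS2 (-0.09 and -0.03), MARS2 (-0.09 and 0.15) and TARS2 (-0.02 and 0.14) lay nearer to it. A second probe of MARS2 differed by 0.00 and -0.04. For asparagine both enzymes were below the control, NARS2 by -0.30 and -0.24 beside NARS1. For phenylalanine the order was turned, with FARS2 at -0.24 and -0.10 beside the higher FARSA and FARSB. The same held for tryptophan, with WARS2 (-0.28 and -0.46) further below the control than WARS1 (-0.18 and -0.23). It also held for arginine, with RARS2 (-0.11 and 0.13) beside RARS1 (0.08 and 0.21). For alanine it held with miR-483 only, AARS2 (-0.22 and -0.12) beside AARS1 (-0.12 and -0.24).

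No synthetase differed by 0.32 or more between the microRNA cultures. Between miR-483 and miR-551a, 0 of 34 genes differed by 0.32 or more, where 5.86% of 9753 genes were lower with miR-483 and 6.18% were higher. Over the 9304 genes detected on both arrays, as the synthetases were, the shares were 4.59% and 4.57%. Such shares would give only a few of 34 genes, so the count of 0 marks nothing particular to the synthetases. Cytosolic genes ran from -0.13 (RARS1) to 0.28 (LARS1), with a median of 0.04. Mitochondrial genes ran from -0.26 (EARS2, the glutamyl enzyme) to 0.19 (WARS2), with a median of -0.09.

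Against Ls-Parental, the LvM3b control was lower in several cytosolic enzymes, furthest in SARS1 and WARS1, which had not reached 0.32 with either microRNA. SARS1, the seryl enzyme, had a log2 level of 11.69 in Ls-Parental and 10.46, 10.29 and 10.22 on the control, miR-483 and miR-551a arrays, 2.34-fold lower in the control than in Ls-Parental (-1.23). WARS1, the cytosolic tryptophanyl enzyme, which interferon-gamma also induces, stood at 11.62 in Ls-Parental and at 10.52, 10.34 and 10.28 on those arrays, 2.15-fold lower (-1.10). For both genes the 3 LvM3b arrays lay together, well below Ls-Parental, and a second probe of WARS1 gave -1.06.

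LARS1 stood at 11.45 in Ls-Parental and at 10.86 (control), 10.99 (miR-483) and 10.71 (miR-551a), 1.5-fold lower in the control. IARS1, the isoleucyl enzyme, stood at 12.61, 12.23, 12.10 and 11.99, 1.31-fold lower. For LARS1 the microRNA arrays lay on either side of the control. In all, 9 of 19 cytosolic genes were lower in the LvM3b control than in Ls-Parental by 0.32 or more, against 18.7% of 9817 genes, and 0 were higher, against 16.9%. The 9 were SARS1, WARS1, LARS1, MARS1, YARS1, GARS1, IARS1, TARS1 and CARS1, of which CARS1, MARS1, GARS1 and YARS1 were also past 0.32 in a microRNA comparison. In this comparison paired probes lay 0.5 apart at the 90th percentile (2106 genes). YARS1 (-0.42), GARS1 (-0.40), IARS1 (-0.39), TARS1 (-0.38) and CARS1 (-0.36) lay within that gap. All 9 are on the list of ATF4 targets, whose median was -0.39; the other 6 cytosolic genes had a median of 0.07.

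This count depended on the scaling. With the authors' scaling, which equalises array medians only, 4 cytosolic genes were lower (SARS1, WARS1, LARS1 and MARS1) and 2 higher (KARS1, 0.42, and RARS1, 0.35), while the median of all genes moved from -0.01 to 0.10 and the split of all genes from 18.7% lower and 16.9% higher to 8.17% and 21.5%. The cytosolic median was then -0.11 in place of -0.24. EPRS1 was then 0.19 in place of -0.05, and QARS1 0.13 in place of -0.09.

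Mitochondrial synthetases had a median of -0.02 in the control over Ls-Parental. Of 15, 0 were lower by 0.32 or more (18.7% of all genes were). Another 2 were higher (16.9% of all genes), a count near that share. EARS2 stood at 10.09 on the control array, 10.03 and 10.30 with the microRNAs (miR-483, then miR-551a), and 9.49 in Ls-Parental, 1.52-fold higher in the control (0.60). LARS2, the mitochondrial leucyl enzyme, stood at 8.70, 8.82, 8.97 and 8.21, 1.4-fold higher (0.49), just within the 90th percentile of the probe gap (0.5). Both were lowest in Ls-Parental, the reverse of cytosolic LARS1. The other 13 ran from -0.28 (TARS2 and VARS2, the valyl enzyme) to 0.25 (SARS2, the seryl enzyme).

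The place of each array among the 4 shows how the comparisons hang together. Ls-Parental had the highest level in 15 of 19 cytosolic genes and in 6 of 15 mitochondrial genes, against 35.9% of the 10095 genes detected on at least 1 array. The miR-551a array had the lowest in 12 and 1 of them, against 24.1% of all genes. The control array was highest in 1 synthetase gene of 34, NARS2, against 20.0% of all genes. The order Ls-Parental above control above both microRNA arrays, described after the values were seen, held for 12 of 19 cytosolic genes (11 of the 13 known ATF4 targets) and 4 of 15 mitochondrial genes, against 15.5% of all genes. The exceptions among the known targets were LARS1 and VARS1. With the authors' scaling the order held for 10 of the 13.

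**Figure D3:**
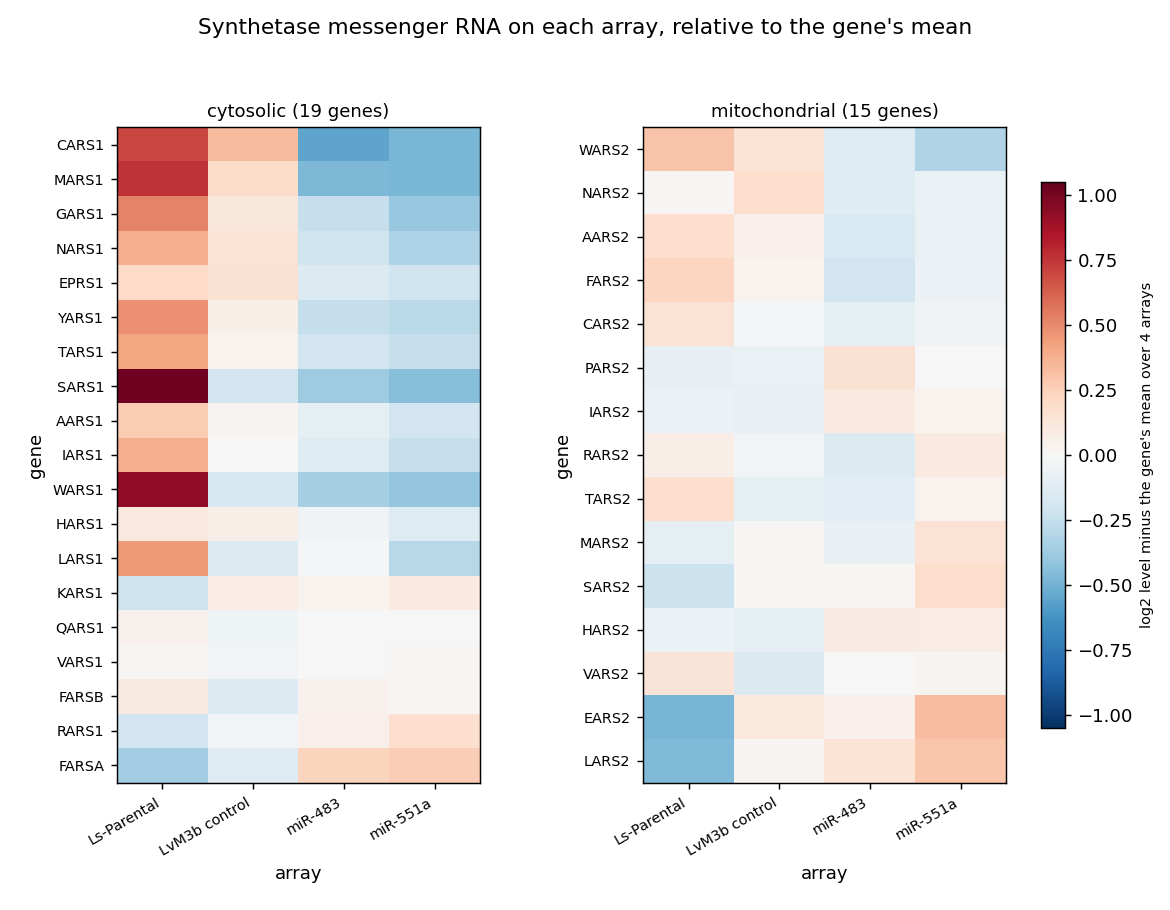
Log2 level of each synthetase gene on each array, minus that gene's mean over the 4 arrays (colour), for 19 cytosolic genes (left) and 15 mitochondrial genes (right), sorted by their difference of miR-551a over control. In the upper rows on the left Ls-Parental is highest and both microRNA arrays are lowest, while EARS2 and LARS2 at the bottom right are lowest in Ls-Parental.

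Other genes of the amino acid response differed in the same direction as these synthetases, and their part in the result was not tested. ATF4 itself had levels of 15.12 (control), 14.79 (miR-483), 14.55 (miR-551a) and 15.11 (Ls-Parental), so it was below the control with both microRNAs (-0.33 and -0.57) and level between the control and Ls-Parental (0.01). Of 14 genes of that list detected in each microRNA comparison, 8 were lower by 0.32 or more in the miR-483 culture and 12 in the miR-551a culture (7.37% and 8.82% of all genes), 0 were higher, and the medians were -0.37 and -0.69. With miR-483 the furthest were ASNS, which makes asparagine (-0.73), DDIT4, an inhibitor of mTORC1 (-0.64), PSAT1, of serine synthesis (-0.58), and TRIB3, a pseudokinase (-0.56). With miR-551a they were CHAC1, which degrades glutathione (not detected there, at least 2.18-fold lower), DDIT4 (-1.87), ATF3 (-1.42) and DDIT3 (-0.97), both transcription factors of the stress response. Between miR-483 and miR-551a, 4 of these 14 genes were higher by 0.32 or more with miR-483 (6.18% of all genes).

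Other steps that feed translation gave few differences of 0.32 or more, about as many as the shares of all genes would give. Those shares were 7.37% lower and 7.2% higher with miR-483, and 8.82% and 9.13% with miR-551a. Among 7 detected genes of transfer RNA transcription and export, XPOT, the exportin that carries transfer RNA out of the nucleus, had levels of 11.79 (control), 11.14 (miR-483), 11.10 (miR-551a) and 11.95 (Ls-Parental), a difference of -0.65 and -0.69. The other 6, subunits of RNA polymerase III and its repressor MAF1, ran from -0.26 to 0.18 in those comparisons. Cytosolic elongation factors had 0 of 6 genes past 0.32 in either, with medians of 0.01 and -0.03 (EEF1A1 0.00 and 0.00, EEF1B2 -0.03 and -0.12). EEF1A1 stood at 16.12 on the control and both microRNA arrays, so high that quantile normalization leaves little room for a difference. Of 11 mitochondrial translation factors, TSFM, which reloads the mitochondrial elongation factor TUFM, was higher (0.66 and 0.51). QRSL1, a subunit of the enzyme that makes glutaminyl transfer RNA in mitochondria, was lower in the miR-483 culture (-0.47). Its level there, 6.17, was at the detection limit (6.15), and the control stood at 6.64. On the miR-551a array QRSL1 was not detected, at least 1.37-fold lower. The medians of the 11 factors were 0.06 and 0.10. DTD1, a deacylase that removes D-amino acids from transfer RNA, differed by 0.03 and 0.01.

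**Figure D4:**
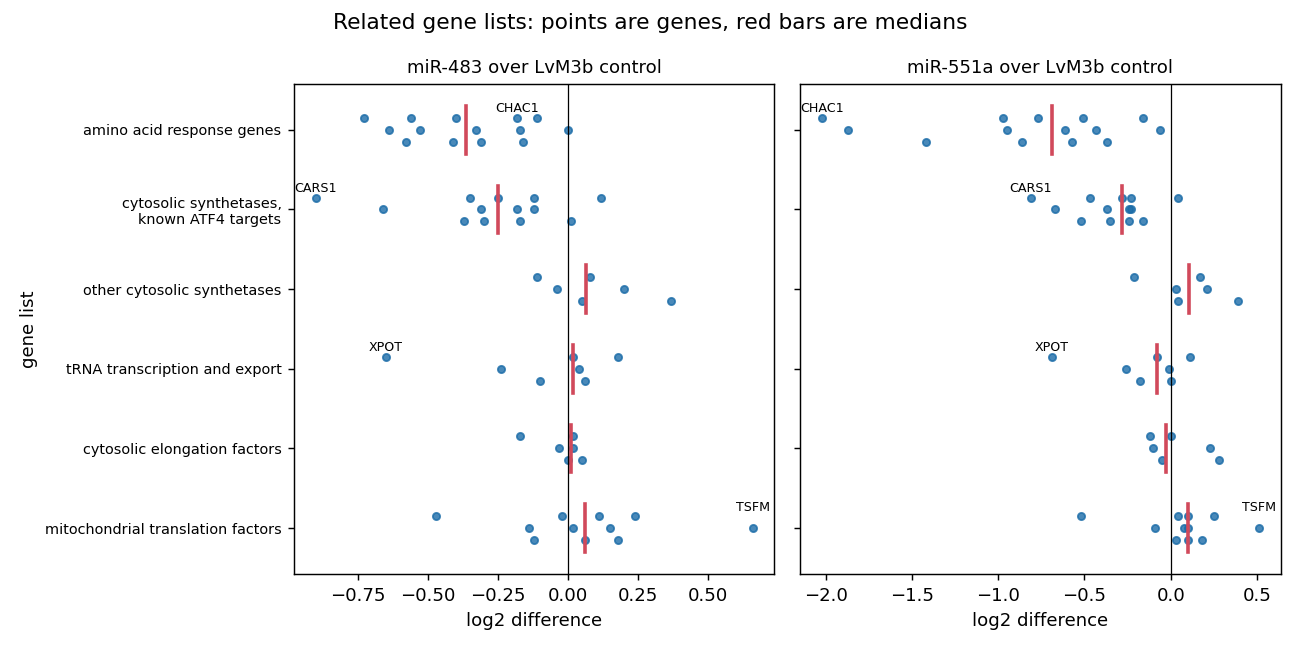
Log2 differences (horizontal axis) of miR-483 over control (left) and miR-551a over control (right) for 6 gene lists, with a point per detected gene and a red bar at the list's median. The amino acid response genes (medians -0.37 and -0.69) and the synthetases known as ATF4 targets (-0.25 and -0.28) lie left of 0, XPOT stands apart among the transfer RNA genes, and the panels have different scales. CHAC1 and QRSL1 with miR-551a are drawn at measured values, where only bounds (at least 2.18-fold and 1.37-fold) apply.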

How the data were processed

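Biotin-labelled RNA of the 4 cultures was read on Illumina arrays, 1 per group; cells were harvested before confluence, per the labels' protocols. The deposited non-normalized table holds a signal, a probe intensity on a linear scale, and a Detection score for each array, per the file headers; 1 minus the score served as detection p, with detection under 0.01. A second table deposited by the authors equals these intensities times 1 factor per array (1 to 1.11), found from the values. The column headed LvM3b was taken as the control because its name lacks a microRNA suffix; its values also equal those deposited under that sample. The software used for either table: not given in the sources used here.

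From the deposited intensities, limma 3.58.1 in R 4.3.3 (neqc) gave normexp-corrected (offset 16), quantile-normalized log2 values. These steps were tried on simulated data with planted changes larger than 0.32, so that trial says nothing about counts at 0.32. Of 48803 probes, 27578 had 1 gene in the supplied platform annotation, 13 several and 21212 none. Of those with 1 gene, 27541 were matched to RefSeq and took its symbol. A gene was read from its brightest probe. A difference not detected on the dim array was set against that array's lowest detected level. Counts used a log2 difference of 0.32 over genes detected on either array. No group had replicates.

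The members, lists and motif were chosen with earlier results of these data known. Members past that difference in a comparison are given on all 4 arrays, up to 12 cytosolic and 8 mitochondrial, and at most 4 genes of each related list. Alternatives were no background correction, the authors' scaling, detection on both arrays, mean of probes, centring on all genes, and leaving out GARS1 and KARS1.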

Additional observations from a re-analysis of the deposited data

How the results depend on the processing

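Of 680 values of single synthetases under another setting, 672 moved by less than the spread between probes of a gene, 8 moved further and 0 of those past 0.32 (log2) changed sign. The 8 were 7 of 136 values with the authors' scaling and 1 of 136 without background correction. Requiring detection on both arrays could change no value, because all 34 genes were detected on all 4 arrays. Averaging probes could change only genes with a second detected probe, and centring shifted values by about 0.01 or less. The agreement of these settings with the main values therefore says little. Medians of the cytosolic and mitochondrial genes moved by less than that spread in every comparison and setting tried; with the authors' scaling the cytosolic median of the LvM3b control over Ls-Parental was -0.11 and that of the 7 complex enzymes 0.13 in place of -0.09. Without background correction and with the authors' scaling, 0 cytosolic genes in place of 1 (FARSA) were higher by 0.32 or more with miR-483, and likewise with miR-551a, and 0 mitochondrial genes in place of 1 (WARS2) were lower with miR-551a. With the authors' scaling, 4 cytosolic genes in place of 9 were lower and 2 in place of 0 were higher in the control over Ls-Parental, and 3 synthetases in place of 1 were highest on the control array. Without background correction the genes lower and higher by 0.32 or more among all genes were 380 and 320 in place of 713 and 696 with miR-483, 467 and 487 in place of 848 and 878 with miR-551a, and 220 and 249 in place of 572 and 603 between the microRNAs. The corresponding counts with the authors' scaling were 375 and 340, 544 and 432, and 194 and 319, and 802 and 2114 in place of 1832 and 1655 for the control over Ls-Parental. Beyond the scaling itself, the cause was not tested. No paired analysis was possible because each group had 1 array, and no array could be left out.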
